A study of Mus musculus with 9 samples.

Results

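TGF-beta is a family of secreted cytokines that are stored in the matrix in a latent form and bind, once released, a type II receptor that then recruits and phosphorylates a type I receptor. The activated type I receptor phosphorylates the receptor-regulated Smads, which join the common Smad and enter the nucleus, while an inhibitory Smad and nuclear co-repressors hold the signal back. In prostate epithelium the pathway is known both for restraining proliferation and, in advanced tumors, for epithelial to mesenchymal transition and invasion. The genes described here are 10 core components of this pathway, chosen by symbol: the ligands Tgfb1, Tgfb2 and Tgfb3, the receptors Tgfbr1 and Tgfbr2, the Smads Smad2, Smad3, Smad4 and Smad7, and the co-repressor Skil. All 10 were among the 12842 genes of the table, and all 10 passed the filter on low values in each comparison.

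The RNA came from NPK cells, a mouse prostate cancer line isolated from lung metastases of NPK mice, an engineered mouse model of metastatic prostate cancer. There were 3 control libraries, 3 libraries of cells treated with an MCTP compound and 3 libraries of cells with shRNA silencing of Nsd2, a histone methyltransferase that places dimethylation on lysine 36 of histone H3. The comparisons ask which transcripts differ when Nsd2 is silenced, and when cells are given a compound described in the study as a putative Nsd2 inhibitor. Values are on a log2 scale as deposited, so the sequencing depth behind each value is unknown. The labels number the compound 39, 40 and 41 in MCTP replicates 1, 2 and 3, whereas the study names only the first of these, and the dose and time of this treatment were not found. The source labels of the shNsd2 libraries name Nsd2, Nsd3 and Nsd4 in turn while all their titles name Nsd2, and the labels say neither which shRNA was used nor whether control cells carried a control shRNA. For its silencing experiments the study describes an shRNA against luciferase in the same lentiviral vector as the control, without saying whether the control libraries described here had it. Nothing says that the libraries of a group came from separate cultures, so p-values measure the spread between these libraries, which may be technical. All groups share 1 line, and in such bulk RNA fewer cells of a type and less RNA per cell cannot be told apart.

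Nsd2, listed under its older symbol Whsc1, had values of 12.48, 12.43 and 12.42 in control, 12.15, 12.21 and 12.07 in MCTP and 11.56, 11.61 and 11.68 in shNsd2 libraries. The shNsd2 libraries were the lowest and did not overlap with either other group, as their titles imply. Whsc1 fell by 0.83 on the log2 scale with shNsd2 (SE 0.0408, n = 3 per group, limma adjusted p = 2.26e-06), to 56.3% of control. With MCTP it fell by 0.30 (adjusted p = 0.00562), but by 0.11 once each library was corrected for the GC content of transcripts (adjusted p = 0.123; range over the alternatives 0.000272 to 0.178). Of 6 leukocyte markers only Cd68 was analysed here, and of 4 endothelial markers only Cdh5, whose mean of 3.56 was under the low-value threshold of 3.78. Cd68 was 6.50 to 6.60 in control, 6.72 to 6.78 in shNsd2 and 7.15 to 7.44 in MCTP libraries, and its part in the results was not tested.

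Epithelial and mesenchymal marker genes were both present, and the levels of some of them differed between the groups. The epithelial keratin gene Krt8 had means of 16.28 in control, 16.54 in MCTP and 16.07 in shNsd2 libraries, and the mesenchymal filament gene Vim, the most abundant of its list, had means of 17.21, 17.53 and 17.06. The epithelial adhesion gene Epcam lay between 3.54 and 3.76, also under that threshold. With shNsd2, 6 of 7 mesenchymal markers were lower and 1 higher, of 5 epithelial markers tested 3 were lower and 1 higher, and of 3 basal epithelial markers 2 were lower and 1 higher, against 24.8% of all genes lower and 23.1% higher. Vim fell by 0.16 (adjusted p = 0.0375), the matrix gene Fn1 by 0.42 (adjusted p = 9.41e-05), and the transcription factor genes Zeb1 and Zeb2 by 0.28 and 0.37 (adjusted p = 0.000804 and 0.00147). Krt8 fell by 0.21 (adjusted p = 0.0193) and the basal keratin gene Krt15 by 1.20 (adjusted p = 5.65e-07), whereas the basal keratin gene Krt14 was higher by 0.78 (adjusted p = 2.22e-05). The other epithelial markers tested went both ways. Cdh1 and Krt19 differed by -0.20 and -0.34 (adjusted p = 0.00368 and 0.00257) and Krt7 by 0.22 (adjusted p = 0.012). Krt18 did not pass (-0.0057, adjusted p = 0.951). With MCTP, the mesenchymal and the epithelial list each had 1 marker higher and 1 lower, and the basal list had 1 higher and 0 lower, against 18.0% and 17.2% of all genes. Vim was higher by 0.32 (adjusted p = 0.0266) and Krt14 by 1.19 (adjusted p = 0.000274), while Zeb1 fell by 0.23 (adjusted p = 0.0407). Krt19 differed by 0.37 (adjusted p = 0.0392) and Cdh1 by -0.34 (adjusted p = 0.00325). Krt8 (0.25, adjusted p = 0.0812), Krt7 (-0.14, adjusted p = 0.232) and Krt18 (-0.007, adjusted p = 0.96) did not pass. On the log2 scale the summed level of the mesenchymal list was 17.63 to 17.71 in control, 17.79 to 17.97 in MCTP and 17.41 to 17.51 in shNsd2 libraries, that of the epithelial list 17.67 to 17.85, 17.78 to 18.14 and 17.53 to 17.69, and that of the basal list 12.64 to 12.68, 12.68 to 12.94 and 11.70 to 11.83. The part of these differences in the results was not tested.

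Before the members are described, MCTP replicate 2, control replicate 1 and shNsd2 replicate 3 need naming, because they stood apart from the rest of their groups along the GC content of transcripts. Among 11952 genes, the 20% with the lowest GC content had a median deviation from each gene's mean of 0.0624 in MCTP replicate 2, against -0.160 and -0.233 in MCTP replicates 1 and 3. In control replicate 1 it was 0.181, against 0.0547 and 0.0152 in control replicates 2 and 3. In shNsd2 replicate 3 it was 0.0955, against -0.0029 and -0.0190 in shNsd2 replicates 1 and 2. Tgfbr1 and Skil, with 41% GC each in their longest transcript, were at percentiles 8.89 and 8.92 of GC content, and the other 8 members between 25.0 and 86.3. The members' differences from MCTP libraries are therefore given with and without MCTP replicate 2.

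Silencing of Nsd2 was accompanied by lower transcript levels of all 3 ligands, of the type II receptor and of the inhibitory Smad. In all, 5 of 10 members were lower and 0 higher at an adjusted p under 0.05 in limma, against 24.8% of all 12205 genes tested lower and 23.1% higher. At an unadjusted p under 0.05 the counts were also 5 and 0, against 28.1% and 26.7% of all genes. The groups did not overlap for 5 members, while 57.2% of all genes had groups that did not overlap. The 5 lower members were also called without control replicate 1 and without shNsd2 replicate 3, with 24.7% and 24.3% of all genes lower, while 7 and 8 members did not overlap, against 68.6% of all genes in each case. With MCTP, 2 members were higher and 1 was lower, against 18.0% of 12216 genes higher and 17.2% lower; for 7 members the groups did not overlap, against 50.6% of all genes. Between the treatments, 4 members were lower and 2 higher in shNsd2 than in MCTP libraries, against 22.6% and 20.6% of 12217 genes, and 8 members did not overlap, against 55.0%. At an unadjusted p under 0.05, 3 members were higher and 4 lower with MCTP, against 23.8% and 24.4% of all genes, and 3 were higher and 5 lower in shNsd2 than in MCTP, against 25.8% and 26.7%. An exact permutation test of 3 libraries against 3 cannot give a p under 0.1, which each member with separate groups had. The median log2 fold change of the members was -0.11 with shNsd2 and -0.12 with MCTP, while that of all genes was 0.002 and -0.0062. Both comparisons share the control libraries.

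**Figure D1:**
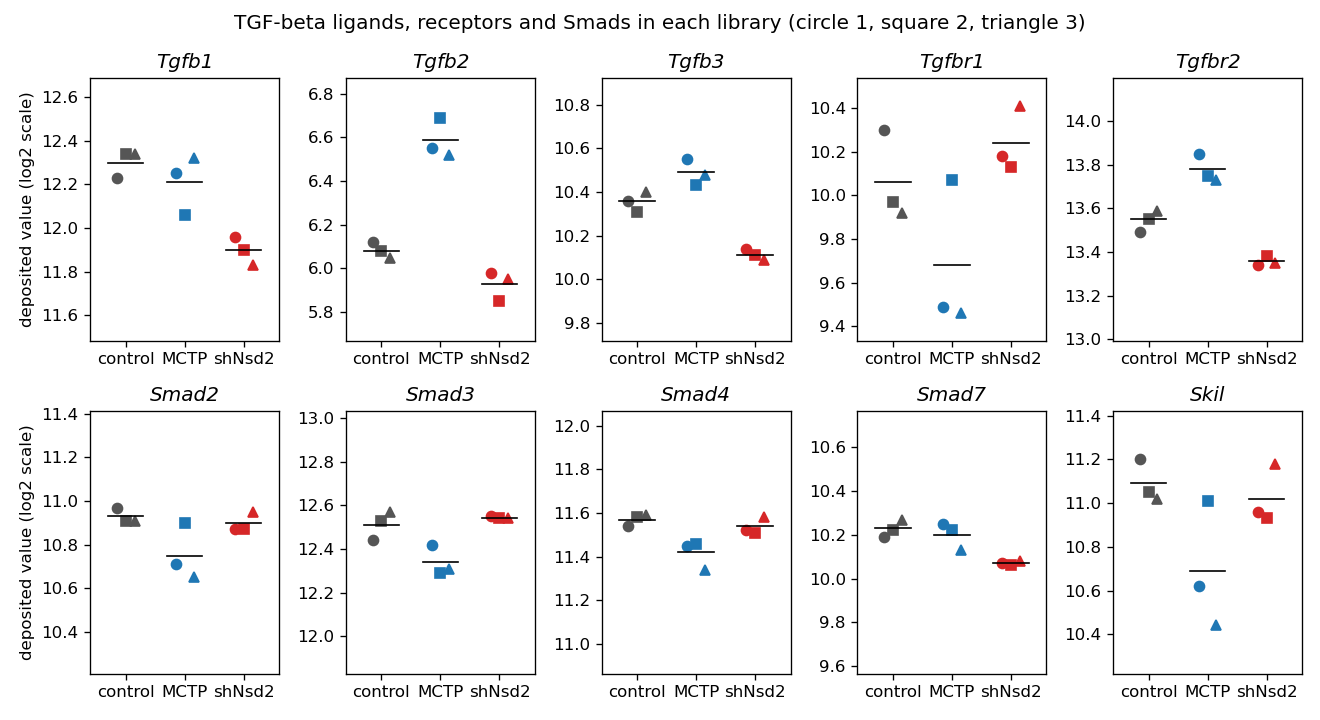
Deposited log2-scale value of each of the 10 members (vertical axis, the same span in every panel) in the 3 libraries of control, MCTP and shNsd2, with a line at the group mean and a circle, square or triangle for replicate 1, 2 or 3. Tgfb1, Tgfb3 and Tgfbr2 are lowest in the 3 shNsd2 libraries, and MCTP replicate 2 stands above the other MCTP libraries in Tgfbr1 and Skil.

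Tgfb1 encodes the most widely expressed ligand of the family. Its values were 12.23, 12.34 and 12.34 in control, 12.25, 12.06 and 12.32 in MCTP and 11.96, 11.90 and 11.83 in shNsd2 libraries. All shNsd2 libraries lay under all others, and the control and MCTP groups overlapped. Tgfb1 fell by 0.40 with shNsd2 (SE 0.0463, adjusted p = 0.000178), to 75.6% of control, the largest fall among the members in this comparison. Against MCTP libraries it was also lower in shNsd2, with a log2 difference of -0.31 (adjusted p = 0.0133), a call lost without MCTP replicate 1 (-0.29, adjusted p = 0.0621) or without shNsd2 replicate 3 (-0.28, adjusted p = 0.0556). The difference between MCTP and control was -0.09 (95% interval -0.27 to 0.08), and -0.15 after correction for GC content (adjusted p = 0.0299; range over the alternatives up to 0.819). Without MCTP replicate 2 this difference was -0.015 (adjusted p = 0.819).

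Tgfb2 encodes a ligand that needs the co-receptor betaglycan for efficient binding to the type II receptor. It was at 6.12, 6.08 and 6.05 in control, 6.55, 6.69 and 6.52 in MCTP and 5.98, 5.85 and 5.95 in shNsd2 libraries. The 3 groups were separate, with MCTP highest and shNsd2 lowest. Tgfb2 was higher with MCTP by 0.50 (SE 0.0552, adjusted p = 0.000722), 1.42-fold, and fell by 0.15 with shNsd2 (adjusted p = 0.0147). Without MCTP replicate 2 the MCTP difference was 0.45 (adjusted p = 4.57e-05). Without shNsd2 replicate 2 the shNsd2 difference was -0.12 and missed the threshold (adjusted p = 0.0623). The direct difference between shNsd2 and MCTP, -0.66 (SE 0.0589, adjusted p = 0.000195), was the widest among the members with all libraries, and it passed under all 14 alternatives tried. Without MCTP replicate 2 it was -0.60, and the difference of 0.76 in Tgfbr1 was then wider. Tgfb2 lies nearer the low end of the scale than the other members, where log2 differences of transformed values may be compressed.

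Tgfb3, the third ligand, was at 10.36, 10.31 and 10.40 in control, 10.55, 10.43 and 10.48 in MCTP and 10.14, 10.11 and 10.09 in shNsd2 libraries. These groups were also separate in the order MCTP, control, shNsd2. Tgfb3 fell by 0.24 with shNsd2 (SE 0.0389, adjusted p = 0.00106), to 84.6% of control, and was lower in shNsd2 than in MCTP libraries by a log2 difference of -0.37 (adjusted p = 0.00110). The difference of 0.13 between MCTP and control did not pass (adjusted p = 0.0945), but did without MCTP replicate 2 (0.16, adjusted p = 0.0234) and with all 9 libraries in 1 fit (adjusted p = 0.0377). After correction for GC content it was 0.06 (adjusted p = 0.258; range over the alternatives up to 0.363). Exons of Tgfb2 share 124 bases with the opposite-strand gene Gm29491, and those of Tgfb3 163 and 257 bases with Gm37804 and Gm48008. Whether reads were counted by strand is not given in the sources used here, so reads of these genes may not be told apart.

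Of the receptors, Tgfbr2 was called against control with shNsd2 and with MCTP, and Tgfbr1 in neither comparison with all libraries. Tgfbr2, the type II receptor that binds ligand, was at 13.49, 13.55 and 13.59 in control, 13.85, 13.75 and 13.73 in MCTP and 13.34, 13.38 and 13.35 in shNsd2 libraries. As for Tgfb2 and Tgfb3, MCTP libraries were highest and shNsd2 libraries lowest with no overlap. Tgfbr2 fell by 0.19 with shNsd2 (SE 0.0375, adjusted p = 0.00352) and was higher by 0.23 with MCTP (SE 0.0572, adjusted p = 0.0192). The MCTP call was lost without control replicate 1 (0.20, adjusted p = 0.0805), control replicate 2 (0.23, adjusted p = 0.0742) or MCTP replicate 1 (0.19, adjusted p = 0.0840). It was also lost with replicate numbers fitted as a block (0.23, adjusted p = 0.0656). Without MCTP replicate 2 the difference was 0.24 (adjusted p = 0.00376), and after correction for GC content 0.22 (adjusted p = 0.00456). The direct difference between shNsd2 and MCTP was -0.42 (adjusted p = 0.000773).

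Tgfbr1, the type I receptor kinase, was at 10.30, 9.97 and 9.92 in control, 9.49, 10.07 and 9.46 in MCTP and 10.18, 10.13 and 10.41 in shNsd2 libraries. MCTP replicate 2 lay among the control values, and the other MCTP libraries lay under all the rest. The difference between MCTP and control was -0.39 (95% interval -0.79 to 0.016, adjusted p = 0.115), and -0.58 without MCTP replicate 2 (adjusted p = 0.000656). It was -0.19 after correction for GC content (adjusted p = 0.147) and -0.27 to -0.46 with any other library left out (adjusted p up to 0.319). With shNsd2 it was 0.18 (adjusted p = 0.194), and 0.23 after correction for GC content (adjusted p = 0.00868) or 0.30 without control replicate 1 (adjusted p = 0.00726). It was 0.09 without shNsd2 replicate 3 (adjusted p = 0.502), 0.10 without control replicate 3 (adjusted p = 0.469) and 0.13 without control replicate 2 (adjusted p = 0.426). Tgfbr1 was higher in shNsd2 than in MCTP libraries by 0.56 (adjusted p = 0.0278), and this call was lost on leaving out MCTP replicate 1 or 3 or any shNsd2 library (0.45 to 0.62). After correction for GC content the difference was smaller, 0.42, and was called (adjusted p = 0.00493).

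Among the Smads, Smad3, a receptor-regulated Smad that binds DNA directly, was at 12.44, 12.53 and 12.57 in control, 12.42, 12.29 and 12.31 in MCTP and 12.55, 12.54 and 12.54 in shNsd2 libraries. The MCTP libraries lay under all others, with a narrow gap to control replicate 1. Smad3 fell by 0.18 with MCTP with an adjusted p of 0.0495, just inside the threshold. The call was lost without control replicate 1 (-0.21), 2 (-0.17) or 3 (-0.15) and without MCTP replicate 1 (-0.21) or 3 (-0.16), with an adjusted p of up to 0.165, and when libraries were centred on their medians (-0.14, adjusted p = 0.122). With replicate numbers fitted as a block it was also lost (-0.18, adjusted p = 0.121). Without MCTP replicate 2 the difference was -0.15 (adjusted p = 0.0366). After correction for GC content it was -0.24 (adjusted p = 0.00355, and 0.0134 with the block added). With all 9 libraries in 1 fit the call was also made (adjusted p = 0.0149). With shNsd2 the difference was 0.031 (95% interval -0.06 to 0.12). Smad3 was higher in shNsd2 than in MCTP libraries by 0.21 (adjusted p = 0.0131). This call was lost on leaving out any 1 shNsd2 library (adjusted p up to 0.0584) and with the block (adjusted p = 0.0673). After correction for GC content the difference was 0.24 (adjusted p = 0.00156).

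Smad2, the other receptor-regulated Smad, ranged from 10.65 to 10.97 over the 9 libraries, and the common Smad, Smad4, from 11.34 to 11.59. With shNsd2 the differences were -0.031 (95% interval -0.12 to 0.05) and -0.033 (-0.11 to 0.046). Without shNsd2 replicate 3 both differences were -0.06 (adjusted p = 0.247 and 0.218). Without control replicate 1 the differences were -0.012 and -0.047 (adjusted p = 0.812 and 0.301). With MCTP they were -0.18 (adjusted p = 0.0890) and -0.15 (adjusted p = 0.0531), and without MCTP replicate 2 they were -0.25 (adjusted p = 0.00157) and -0.18 (adjusted p = 0.0127). After correction for GC content Smad2 differed by -0.07 (adjusted p = 0.199; range over the alternatives up to 0.315) and Smad4 by -0.16 (adjusted p = 0.0189), and without MCTP replicate 3 they differed by -0.12 (adjusted p = 0.233) and -0.11 (adjusted p = 0.138). With all 9 libraries in 1 fit both passed (adjusted p = 0.0436 and 0.0189). All MCTP libraries lay under all control libraries for both genes.

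Smad7, which blocks the type I receptor and is itself induced by the signal, was at 10.19, 10.22 and 10.27 in control, 10.25, 10.22 and 10.13 in MCTP and 10.07, 10.06 and 10.08 in shNsd2 libraries. The shNsd2 libraries lay together under all others. Smad7 fell by 0.16 with shNsd2 (SE 0.0371, adjusted p = 0.00718), and differed by -0.029 between MCTP and control (95% interval -0.16 to 0.10), by -0.039 without MCTP replicate 2 (adjusted p = 0.563) and by -0.13 after correction for GC content (adjusted p = 0.126). Skil, a co-repressor of Smad complexes, was at 11.20, 11.05 and 11.02 in control, 10.62, 11.01 and 10.44 in MCTP and 10.96, 10.93 and 11.18 in shNsd2 libraries. As for Tgfbr1, MCTP replicate 2 lay near the control values. With shNsd2 Skil differed by -0.07 (adjusted p = 0.447), by -0.015 without control replicate 1 (adjusted p = 0.869) and by -0.15 without shNsd2 replicate 3 (adjusted p = 0.0647). The difference between MCTP and control was -0.40 (adjusted p = 0.0522), -0.56 without MCTP replicate 2 (adjusted p = 0.00012) and -0.20 after correction for GC content (adjusted p = 0.0309). It was -0.27 without MCTP replicate 3 (adjusted p = 0.128). Without MCTP replicate 2, 5 members in all were lower with MCTP and 3 were higher, but calls then rose over the whole table too, to 30.7% of 12203 genes lower and 29.7% higher.

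The direct comparison of shNsd2 with MCTP libraries was also made without MCTP replicate 2. The ligands and the type II receptor were lower in shNsd2, with log2 differences of -0.39 for Tgfb1, -0.60 for Tgfb2, -0.40 for Tgfb3 and -0.43 for Tgfbr2 (adjusted p 9.72e-06 to 0.000103). Tgfbr1 was higher by 0.76 (adjusted p = 3.21e-05) and Smad3 by 0.18 (adjusted p = 0.00482). For 3 members no call was made with all libraries, but one was made without MCTP replicate 2: Smad2 differed by 0.14 with the library (adjusted p = 0.138) and 0.22 without (adjusted p = 0.00215), Smad4 by 0.12 (adjusted p = 0.0939) and 0.14 (adjusted p = 0.0248), and Skil by 0.33 (adjusted p = 0.0957) and 0.49 (adjusted p = 0.00050). With all libraries, Smad4 also passed after GC correction (0.14, adjusted p = 0.0262) or with all 9 libraries in 1 fit (0.12, adjusted p = 0.0459), and Skil after GC correction (0.19, adjusted p = 0.0440). With GC correction and replicate numbers fitted as a block, neither Smad4 nor Skil passed (adjusted p = 0.0736 and 0.0821). Without MCTP replicate 3 their differences were 0.08 and 0.20 (adjusted p = 0.227 and 0.230). Smad7 differed by -0.13 with MCTP replicate 2 (adjusted p = 0.0685) and -0.12 without (adjusted p = 0.0551). It passed without MCTP replicate 3 (-0.17, adjusted p = 0.0340), after quantile normalization (-0.16, adjusted p = 0.0384) and with all 9 libraries in 1 fit (adjusted p = 0.0349). After GC correction it was -0.08 (adjusted p = 0.318). With replicate numbers fitted as a block it was -0.13 (adjusted p = 0.2255), and with both -0.08 (adjusted p = 0.378). In all, without MCTP replicate 2, 5 members were higher and 4 lower in shNsd2, against 31.6% and 32.0% of 12191 genes.

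**Figure D2:**
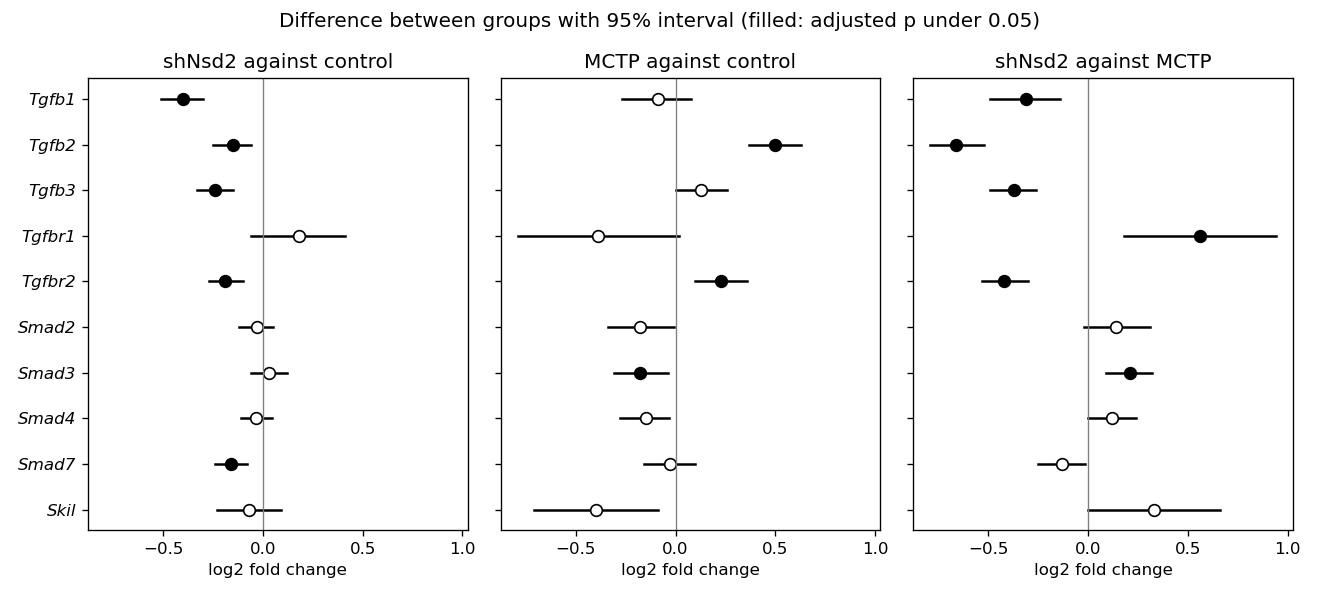
Log2 fold change (horizontal axis) of the 10 members in the 3 comparisons, each with its 95% interval from limma; filled points have an adjusted p under 0.05. In shNsd2 against control the filled points are the 3 ligands, Tgfbr2 and Smad7, at -0.40 to -0.15.

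Per kilobase of the longest transcript, the log2 level in control cells was 10.94 for Tgfb1, 10.53 for Tgfbr2, 10.17 for Smad3 and 9.81 for Smad4. It was 8.60 for Tgfb3, 8.34 for Skil, 8.13 for Smad7, 7.91 for Smad2, 7.54 for Tgfbr1 and 3.73 for Tgfb2. Tgfb1 was thus the most abundant ligand transcript and Tgfb2 the least on this scale, and transcripts of the type II receptor exceeded those of the type I receptor in all 3 groups, at 10.76 against 7.15 in MCTP and 10.34 against 7.71 in shNsd2 libraries. Replicate SDs in control were 0.0235 to 0.209, and each gap between neighbours in this order exceeded the SDs of both. The order depends on the transcript taken: with the mean length over transcripts Smad3 was at 12.00 and Tgfb1 at 11.99.

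Promoters of 5 members were matched in RefSeq (build GRCm38.p6): Tgfb1, Tgfb2, Tgfbr1, Tgfbr2 and Smad3. Those of Tgfb1, Tgfb2 and Tgfbr2 are shown because all these genes fell with shNsd2 while only Tgfb2 and Tgfbr2 were higher with MCTP. Each is 300 bases around the gene's start, 5′ to 3′ on the gene's strand, with matches to the Smad box CAGAC on either strand in capitals; this motif was chosen after the Tgfb2 promoter had been viewed. The letters occur in 49.6% of all 32851 promoters of this length, so a match is a description and not a site. The Tgfb1 promoter (chr7:25686752-25687051, plus strand) had 0 matches and 77% GC, that of Tgfb2 (chr1:186705940-186706239, minus strand) had 2 matches and 54.3% GC, and that of Tgfbr2 (chr9:116175314-116175613, minus strand) had 1 match and 59.0% GC, where the median of all promoters was 52.7%. The promoter of Smad3 had 0 matches, and Tgfbr1, which was not called higher with MCTP, had 0 at one start and 1 at its second start. Any part of the motif in the differences was not tested.
Tgfb1: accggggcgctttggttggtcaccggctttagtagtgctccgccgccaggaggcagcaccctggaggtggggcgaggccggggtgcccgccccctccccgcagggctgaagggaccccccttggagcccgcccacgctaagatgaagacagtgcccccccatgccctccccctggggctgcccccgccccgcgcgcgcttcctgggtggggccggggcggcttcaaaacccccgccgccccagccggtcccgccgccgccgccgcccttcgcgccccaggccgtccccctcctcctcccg
Tgfb2: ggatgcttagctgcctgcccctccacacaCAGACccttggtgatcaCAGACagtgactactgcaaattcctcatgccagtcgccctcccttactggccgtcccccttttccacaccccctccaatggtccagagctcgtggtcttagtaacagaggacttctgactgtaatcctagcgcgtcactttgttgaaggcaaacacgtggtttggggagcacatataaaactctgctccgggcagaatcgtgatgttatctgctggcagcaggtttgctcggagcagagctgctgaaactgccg
Tgfbr2: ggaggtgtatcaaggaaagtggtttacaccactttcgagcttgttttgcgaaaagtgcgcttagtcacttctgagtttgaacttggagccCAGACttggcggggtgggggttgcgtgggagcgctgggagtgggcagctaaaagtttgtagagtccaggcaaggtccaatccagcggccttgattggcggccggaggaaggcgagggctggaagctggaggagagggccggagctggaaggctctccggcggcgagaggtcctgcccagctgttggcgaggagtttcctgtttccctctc

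Profiles most like those of the 4 members with the widest range of group means were found by the root mean square difference of centred values over the 9 libraries, among 12228 other genes. For Tgfb2 these were Enpp5 (0.0493), C1s (0.0594) and Plekhg1 (0.0609), where Tgfb2 itself varied by a root mean square of 0.286 around its mean. For Tgfbr2 they were 6330578E17Rik (0.0322), Mmp19 (0.0327) and Kremen1 (0.0354), and for Tgfb1 Echdc3 (0.0237), Smtn (0.0295) and Gmpr (0.0324). For Tgfbr1, in which MCTP replicate 2 stands apart, they were 2810474O19Rik (0.0298), Psmc6 (0.0324) and Srsf10 (0.0344).

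By position in GRCm38, Tgfb1 spans 25687002 to 25705077 of chromosome 7, Tgfb2 186622792 to 186705989 of chromosome 1 and Tgfb3 86056745 to 86079041 of chromosome 12. Tgfbr1 spans 47353222 to 47414931 of chromosome 4. Tgfbr2 and Smad3 lie far apart on chromosome 9, at 116084293 to 116175360 and 63646767 to 63757994. Skil spans 31095058 to 31122577 of chromosome 3, and Smad2, Smad4 and Smad7 lie on chromosome 18.

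Other genes of the pathway were taken from 6 lists with 118 genes, of which 91 were in the table and 87 were tested. With shNsd2 11 were higher and 34 lower, against 23.1% and 24.8% of all genes tested, and with MCTP 25 were higher and 22 lower, against 18.0% and 17.2%. Between the treatments 15 were higher and 36 lower in shNsd2, against 20.6% and 22.6% of all genes. Without MCTP replicate 2, 28 were higher and 32 lower with MCTP, against 29.7% and 30.7%, and all 18 calls with MCTP that are named below were also made. Latency and activation genes govern how stored ligand is released, and of 9 tested 1 was higher and 6 lower with shNsd2 (all genes 23.1% and 24.8%), while 1 was higher and 3 lower with MCTP (18.0% and 17.2%). Their median log2 fold change was -0.23 and -0.048, beside 0.002 and -0.0062 over all genes. Thbs1, encoding thrombospondin 1, a matrix protein that activates latent TGF-beta, was at 15.45, 15.26 and 15.31 in control, 15.96, 15.99 and 15.77 in MCTP and 14.46, 14.47 and 14.43 in shNsd2 libraries. Its groups were separate, highest with MCTP and lowest with shNsd2. Thbs1 fell by 0.89 with shNsd2 (adjusted p = 5.55e-06) and was higher by 0.57 with MCTP (adjusted p = 0.00265). The integrin subunit genes Itgb1 and Itgav fell in both, by 0.59 and 0.53 with shNsd2 and by 0.32 and 0.50 with MCTP. Both MCTP calls were lost on leaving out single libraries, that of Itgb1 without control replicate 1 (-0.29, adjusted p = 0.0822), control replicate 2 (-0.32, adjusted p = 0.0749), control replicate 3 (-0.35, adjusted p = 0.0561), MCTP replicate 1 (-0.32, adjusted p = 0.0839) or MCTP replicate 3 (-0.24, adjusted p = 0.0512), and that of Itgav without control replicate 1 (-0.44, adjusted p = 0.0574) or MCTP replicate 1 (-0.48, adjusted p = 0.0697).

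Of 7 activin, BMP and GDF ligands tested, 6 were higher and 1 lower with MCTP, against 18.0% and 17.2% of all genes, whereas 1 was higher and 3 lower with shNsd2, against 23.1% and 24.8%. The median log2 fold change of the list was 0.39 with MCTP and -0.047 with shNsd2, and that of all genes -0.0062 and 0.002. Inhba, which encodes the activin A subunit, was at 10.36, 10.30 and 10.22 in control, 9.51, 9.80 and 9.27 in MCTP and 9.47, 9.44 and 9.69 in shNsd2 libraries. Both treated groups lay under control and overlapped with each other. Inhba fell by 0.77 with MCTP (adjusted p = 0.00356) and by 0.76 with shNsd2 (adjusted p = 5.14e-05). Bmp4 was higher by 0.58 with MCTP (adjusted p = 0.000374) and fell by 0.25 with shNsd2 (adjusted p = 0.00206). Gdf15, a stress-induced member of the superfamily, was higher by 0.36 with shNsd2 (adjusted p = 0.00828) and by 0.50 with MCTP (adjusted p = 0.0204), the latter call being lost without control replicate 1 (0.38, adjusted p = 0.0580) or MCTP replicate 1 (0.54, adjusted p = 0.0601).

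Of 11 other receptors and co-receptors, 1 was higher and 2 lower with shNsd2, shares under the 23.1% and 24.8% of all genes, and 3 were higher and 1 lower with MCTP, where all genes gave 18.0% and 17.2%. The list's median log2 fold change was -0.08 with shNsd2 and 0.0073 with MCTP (all genes 0.002 and -0.0062). Tgfbr3, encoding the co-receptor betaglycan, was at 9.99, 9.87 and 9.88 in control, 10.44, 10.41 and 10.36 in MCTP and 9.28, 9.26 and 9.28 in shNsd2 libraries. Its groups were separate in the same order as those of Tgfb2 and Tgfbr2. Tgfbr3 fell by 0.65 with shNsd2 (adjusted p = 1.13e-05) and was higher by 0.49 with MCTP (adjusted p = 0.000874). Acvrl1, a type I receptor best known in endothelium, was higher by 0.66 with MCTP (adjusted p = 1.76e-05) from a low control mean of 4.56, and by 0.08 with shNsd2, where the call was lost under 9 of 14 alternatives, GC correction among them (0.021, adjusted p = 0.659). The activin receptor gene Acvr2b fell by 0.23 with MCTP (adjusted p = 0.00894), and Acvr2a fell by 0.15 with shNsd2 (adjusted p = 0.0278), a call lost under 7 of 14 alternatives. Of 7 extracellular antagonists, 1 was higher and 5 lower with shNsd2 (all genes 23.1% and 24.8%), and 2 were higher and 2 lower with MCTP (18.0% and 17.2%), with medians of -0.22 and 0.11. The BMP antagonist Grem1 and the BMP modulator Bmper fell by 0.58 and 0.56 with shNsd2 (adjusted p = 0.000179 and 1.4e-05). Grem1 was also lower in MCTP libraries, at 6.41 to 6.70 against 6.95 to 7.15 in control. With MCTP, Fst, encoding the activin-binding follistatin, was higher by 0.81 (adjusted p = 5.67e-05) and Nbl1, a BMP antagonist, by 0.60 (adjusted p = 0.00175), while Bmper fell by 0.55. Nbl1 was also higher in shNsd2 libraries, at 8.52 to 8.56 against 8.31 to 8.37 in control. Chrd, the BMP antagonist chordin, fell by 0.23 with shNsd2 (adjusted p = 0.00480).

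Of 25 other Smads and intracellular regulators, 2 were higher and 2 lower with shNsd2, in both directions a smaller share than the 23.1% and 24.8% of all genes, while 2 were higher and 9 lower with MCTP, against 18.0% and 17.2%. Their median log2 fold change was 0.023 with shNsd2 and -0.12 with MCTP, beside 0.002 and -0.0062 over all genes. With shNsd2, Smurf1, a ubiquitin ligase for Smads and receptors, was higher by 0.24 (adjusted p = 0.000878), Strap, a partner of Smad7, was higher by 0.19 (adjusted p = 0.00178), and the endocytic adaptor gene Dab2 fell by 0.22 (adjusted p = 0.00468). With MCTP, Dab2 fell by 0.46 (adjusted p = 0.00141) and Zfyve9, encoding the receptor anchor SARA, by 0.36 (adjusted p = 0.00351). Trim33 fell by 0.48 with MCTP (adjusted p = 0.0363), and this call was lost on leaving out any library other than MCTP replicate 2 (-0.51 to -0.36, adjusted p 0.0775 to 0.137).

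Of 28 induced target genes, 5 were higher and 16 lower with shNsd2, against 23.1% and 24.8% of all genes, with a median log2 fold change of -0.16 (all genes 0.002). With MCTP 11 were higher and 6 lower, against 18.0% and 17.2%, with a median of 0.08 (all genes -0.0062). Ctgf, a matricellular gene, was at 10.68, 10.68 and 10.60 in control, 11.59, 11.50 and 11.59 in MCTP and 9.93 to 10.09 in shNsd2 libraries. The groups were separate in the order MCTP, control, shNsd2. Ctgf fell by 0.64 with shNsd2 (adjusted p = 1.82e-05). The circadian repressor gene Bhlhe40 fell by 0.69 with shNsd2 (adjusted p = 1.4e-05). Its MCTP values, 13.40 to 13.55, also lay under those of control, 13.84 to 14.01. Angptl4, encoding a secreted inhibitor of lipoprotein lipase, fell by 0.55 with shNsd2 (adjusted p = 5.32e-05) and was higher by 1.02 with MCTP (adjusted p = 0.000387). The matricellular gene Cyr61 was higher by 0.95 with MCTP (adjusted p = 0.000116). Its shNsd2 values, 12.16 to 12.19, also lay above those of control, 11.87 to 12.04. The targets named for the size of their shNsd2 difference, Ctgf, Bhlhe40 and Angptl4, all fell, whereas 5 targets were higher. Acta2, the smooth muscle actin gene, was at 5.83, 6.03 and 5.98 in control, 8.91, 8.81 and 9.16 in MCTP and 6.04, 6.18 and 6.01 in shNsd2 libraries. Only the MCTP libraries stood apart. Acta2 was higher by 3.02 with MCTP (SE 0.0960, adjusted p = 7.18e-06), and the shNsd2 difference was 0.13 (adjusted p = 0.107).

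**Figure D3:**
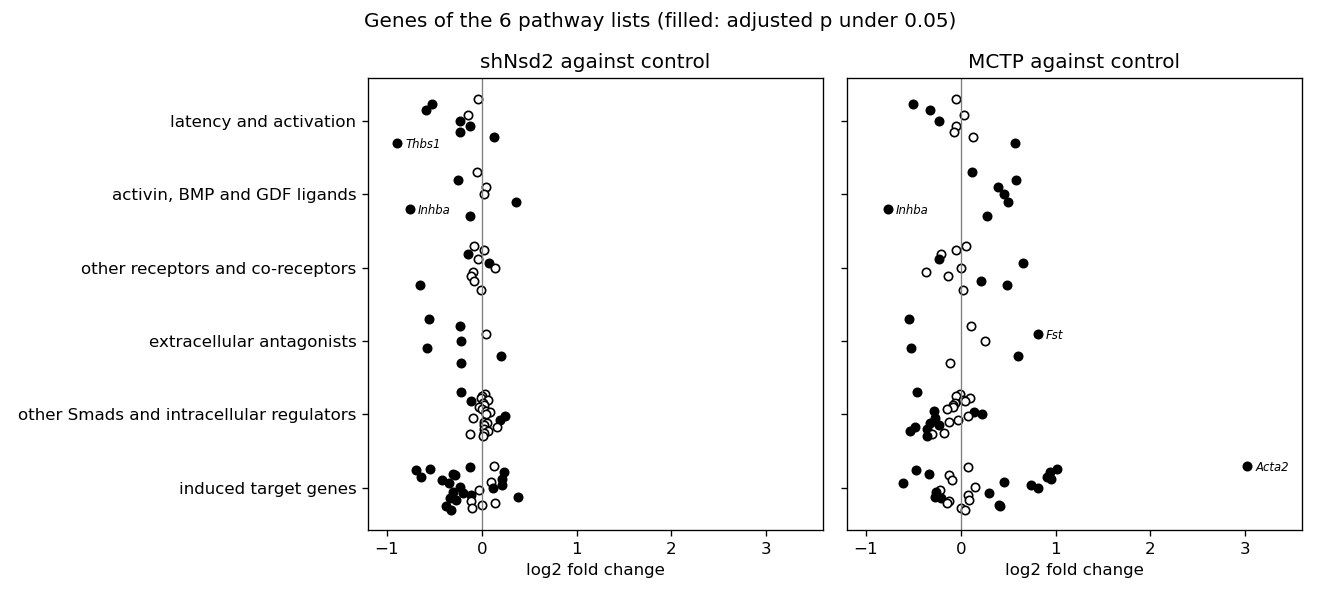
Log2 fold change (horizontal axis) of the tested genes of the 6 pathway lists (rows) with shNsd2 and with MCTP against control; each point is a gene and filled points have an adjusted p under 0.05. In the induced target genes 16 filled points lie left of 0 with shNsd2, and Acta2 lies at 3.02 with MCTP.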

How the data were processed

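The deposited table holds log2-scale expression values per gene, which the authors had already scaled between libraries; the transform of this table is not named, while for its sorted tumor cells the study describes normalization and variance stabilization with DESeq2. The submitters' processing notes name bcl2fastq 1.8.4, TopHat, Cufflinks, DESeq, DESeq2 and build mm9. Of 12 value columns, 3 matched no sample and were not used. Values ran from 1.63 to 18.47. Genes entered a test when 3 or more of its 6 libraries exceeded 3.78, the median of the lowest 10% of values. Each pair of groups was compared with limma 3.58.1 (lmFit, eBayes with a mean-variance trend) in R 4.3.3, p-values being adjusted by Benjamini and Hochberg's method across every gene in the fit and called under 0.05; each adjusted p is from limma. The limma step was tested on simulated data with the gene means and spreads of shNsd2 against control and independent normal noise. It called 70% of 100 genes shifted by 0.3 and 95% of 100 shifted by 0.6, and 5.17% of its 174 calls were false. Differences of 0.3 or less can therefore be missed. Lengths, GC content and positions came from GENCODE (GRCm38) for 12513 of 12842 genes (97.4%), since no mm9 annotation was used here, and promoters from RefSeq; plots were drawn with matplotlib 3.10.9. GC correction subtracted a lowess curve (span 0.3) from each library. Named genes are the members, Nsd2, markers that describe the cells, and from each list up to 3 genes per comparison with control, by absolute log2 fold change among those past the threshold with separate groups. The members and lists were chosen with earlier results of these data known. Some genes that describe the cells are not reported here. The alternatives tried were no filter, all 9 libraries in 1 fit, a replicate block, GC correction, both together, quantile normalization, median centring, no trend, and each library left out.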

Additional observations from a re-analysis of the deposited data

How the results depend on the processing

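With shNsd2, the calls of Tgfb1, Tgfb3, Tgfbr2 and Smad7 passed under all 14 alternatives, and that of Tgfb2 under 13. The MCTP results rest more on single libraries: leaving out 1 library gave 0 to 5 members lower (1 in the full comparison) and 1 to 3 higher (2), while 7.5% to 30.7% of all genes were lower and 9.1% to 29.7% higher. In shNsd2 against MCTP it gave 0 to 5 higher (2; all genes 11.6% to 31.6%), and in shNsd2 against control 0 to 1 higher (0; all genes 16.7% to 24.5%). Members whose groups did not overlap in shNsd2 against control numbered 5 to 8 with a library left out, against 60.2% to 68.6% of all genes, and the members' median ran from -0.16 to -0.07. With GC correction, 1 member was higher with shNsd2 (all genes 27.6%), 4 were lower with MCTP (22.5%) and 4 were higher in shNsd2 than in MCTP (28.2%); all 9 libraries in 1 fit gave 4 lower with MCTP (23.4%) and median centring 0 (14.0%). The cause of these changes was not tested.

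Replicate numbers were tried as a block, since whether libraries of the same number share a culture or batch is not given. The deviations of libraries with the same number from their group means did not all correlate. The correlations were -0.490, 0.247 and -0.511 for shNsd2 and control. They were -0.60, -0.568 and 0.612 for MCTP and control, and 0.353, -0.632 and -0.805 for shNsd2 and MCTP. These values cannot settle the pairing, because in each group 1 library, under a different number each time, stood apart along GC content. The replicate block gave 1 member higher with MCTP (all genes 13.9%) and 1 higher in shNsd2 than in MCTP (14.0%), since Tgfbr2 with MCTP (0.23, adjusted p = 0.0656) and Smad3 in shNsd2 against MCTP (0.21, adjusted p = 0.0673) then missed the threshold; so did Smad3 with MCTP (-0.18, adjusted p = 0.121), whereas Skil with MCTP passed (-0.40, adjusted p = 0.0382). Among the other named genes it ended the calls of Acvr2a (-0.15, adjusted p = 0.0808) and Acvrl1 (0.08, adjusted p = 0.0647) with shNsd2. With block and GC correction in the same fit, 1 of the members was higher with shNsd2 (all genes 24.9%) and 3 were lower with MCTP (18.8%). Genes called over the whole table with shNsd2 went from 2815 higher and 3021 lower to 2105 and 2410 under the block, and with MCTP from 2198 and 2107 to 1692 and 1707. In the lists, the block gave 0 latency genes and 0 other receptors higher and 1 other receptor and 1 regulator lower with shNsd2, 1 regulator higher with MCTP, and 1 latency gene and 1 regulator lower and 2 targets higher in shNsd2 than in MCTP.

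Directions changed only where no call was made. Smad2 with shNsd2 was 0.029 with GC correction, with or without the block, and Smad3 was -0.0027 with either and -0.0042 to 0.06 with a library left out. Smad7 with MCTP was -0.13 with GC correction, 0.0026 after quantile normalization, 0.005 after median centring and -0.05 to 0.0071 with a library left out.

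List counts moved as follows. With a library left out, all lists together gave 12 to 32 lower with MCTP and 8 to 22 higher in shNsd2 than in MCTP. With shNsd2, latency genes higher were 0 to 1, other receptors 0 to 1 higher and 1 to 3 lower, and regulators 1 to 2 lower. With MCTP, latency genes were 1 to 2 higher and 1 to 3 lower, other receptors 1 to 4 lower, and regulators 1 to 3 higher and 3 to 13 lower. In shNsd2 against MCTP, latency genes were 1 to 4 lower, other receptors 0 to 3 higher (median -0.04 to 0.06), regulators 5 to 15 higher and 1 to 2 lower, and targets 2 to 4 higher. With a library left out, list medians with MCTP ran from -0.09 to -0.0048 for latency genes and -0.022 to 0.027 for other receptors. The antagonist median ran from 0.06 to 0.15, and from 0.03 under the other alternatives, and the regulator median from -0.14 to -0.06. With shNsd2, the other receptor median ran from -0.08 to -0.05. The regulator median ran from -0.012 to 0.044, so its sign changed. GC correction, with shNsd2, gave 0 latency genes and 0 other receptors, 2 antagonists and 6 regulators higher; with the block, 0 latency genes, 0 antagonists and 5 regulators. With MCTP it gave 2 latency genes higher and 6 lower (2 and 5 with the block), and medians of -0.15 for latency, 0.28 for activin, BMP and GDF ligands and 0.07 for other receptors, the same with the block. In shNsd2 against MCTP it gave 4 latency genes lower and 2 other receptors higher (3 and 1 with the block), and an other receptor median of -0.10, with or without the block. Without a filter the activin, BMP and GDF ligand median was 0.28 with MCTP and -0.17 in shNsd2 against MCTP. All 9 libraries in 1 fit gave 0 latency genes higher, 1 other receptor and 1 regulator lower with shNsd2, and 1 regulator higher with MCTP. Quantile normalization gave 0 latency genes and 0 other receptors higher with shNsd2, 1 regulator higher with MCTP and 2 other receptors higher in shNsd2 than in MCTP. Median centring gave 4 regulators higher and 1 lower with shNsd2.

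With the mean transcript length, control levels per kilobase were 11.99 for Tgfb1, 5.21 for Tgfb2, 8.74 for Tgfbr1, 11.01 for Tgfbr2, 9.77 for Smad2, 12.00 for Smad3, 11.15 for Smad4, 9.53 for Smad7 and 9.05 for Skil. Count tests were not run, since the values are not counts; depth is unknown, and 3 libraries per group limit the precision.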
